A study of Mus musculus with 8 samples.

Results

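Among the 24346 genes listed for 8 cultures of mouse adipose-derived stem cells (ADSCs), 51 belong to the signalling pathways of transforming growth factor beta (TGF-beta), bone morphogenetic proteins (BMPs) and activins. They were chosen by gene symbol from their known roles as ligands, receptors, antagonists, SMAD proteins and ID target genes. The choice was made with earlier results of these data known. ADSCs are stromal cells that can be grown out of fat tissue, here the gonadal fat of adult male wild-type BALB/c mice, as primary cultures without genetic change. In 4 libraries (mice 2, 3, 4 and 5) the cells were grown flat by conventional culture (2D), and in 4 libraries (mice 1, 4, 5 and 7) they were embedded in Matrigel, a basement membrane gel, and grown as organotypic 3D cultures. Both kinds of library came from mice 4 and 5. The study tried several 3D media, most of them with conditioned medium holding Wnt3a or R-spondin, and which medium and passage the sequenced 3D cultures had is not given in the sources used here, so gel, medium and passage cannot be told apart.

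Ligands of this superfamily are secreted dimers that bring together type II and type I receptor kinases at the cell surface. The type I receptor then phosphorylates a receptor-regulated SMAD protein, SMAD2 or SMAD3 after TGF-beta and activin and SMAD1, SMAD5 or SMAD9 after BMP, which joins SMAD4 and enters the nucleus. Secreted antagonists such as gremlin, chordin and follistatin bind the ligands outside the cell, inhibitory SMADs act inside it, and ID genes are classic targets of BMP signalling. In stromal cells, TGF-beta is known for driving matrix production, and in adipose precursors BMPs are known for adipocyte commitment.

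Values are gene levels as FPKM, a fragment count scaled to transcript length and library size, quantile normalized across the libraries, and are given in the order of mice 2, 3, 4 and 5 for 2D and of mice 1, 4, 5 and 7 for 3D. Differences are log2 fold changes of FPKM + 1, 3D minus 2D, with standard errors (SE) and adjusted p-values of limma over all 18862 genes tested, and a gene is said to have risen or fallen where that p was below 0.05. With the added 1, a log2 fold change understates the change of a gene near 0 in either culture. The estimated depth was between 14.5 M and 17.3 M fragments per library, at which 3 fragments on a transcript of 1 kilobase come to between 0.174 and 0.207 FPKM. Correlations of all genes were between 0.932 and 0.974 within a culture and between 0.758 and 0.823 across cultures. The cell type label was mesenchymal stem cells. Stromal markers were high in 2D and mostly near 0 in 3D, while no list of stem cell surface markers was tested. The paper's flow cytometry of such surface proteins found some of them reduced in 3D and Sca-1 comparable between the cultures. The summed level of 12 stromal markers was between 2098 and 4530 FPKM in 2D and between 4.78 and 8.71 FPKM in 3D, where Pdgfrb and Dcn were at 0 in all 4 libraries and 11 of the 12 fell. Twist1 gave most of the 3D sum, at between 4.59 and 7.99 FPKM. Of 14 epithelial markers 13 rose, with sums between 31.9 and 694 FPKM in 2D and between 2750 and 3218 FPKM in 3D. Fewer cells of a type and less RNA per cell cannot be told apart in these bulk libraries, and the part of the changed cell markers in the differences below was not tested. The 2D libraries of mice 3 and 4 also held mesothelial genes, with a summed level of 6 markers of 846 and 2028 FPKM against at most 33.97 FPKM in any other library.

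The promoters of 5 members are shown because the results below turn on these genes or on what their promoter holds. Grem1 and Inhba were high in 2D and at or near 0 in 3D, Id4 and Gdf15 were higher in 3D, and Smad6, an inhibitory SMAD, was the only member with a palindromic SMAD motif among those with a promoter entry. They were picked after their values were seen. For 4 genes the 250 bases before the start of the transcript are given 5′ to 3′, from the RefSeq promoter table on GRCm38. Capitals mark the GC-rich SMAD motif GGCGCC, which reads the same on both strands, or, in Smad6, the palindrome GTCTAGAC.
Grem1 promoter, chr2:113758649-113758898, minus strand: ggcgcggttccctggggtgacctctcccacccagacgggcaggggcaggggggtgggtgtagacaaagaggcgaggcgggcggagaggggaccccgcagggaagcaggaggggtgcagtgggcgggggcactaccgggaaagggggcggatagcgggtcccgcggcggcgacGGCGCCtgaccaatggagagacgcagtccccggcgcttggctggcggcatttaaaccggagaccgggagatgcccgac
Inhba promoter, chr13:16011601-16011850, plus strand: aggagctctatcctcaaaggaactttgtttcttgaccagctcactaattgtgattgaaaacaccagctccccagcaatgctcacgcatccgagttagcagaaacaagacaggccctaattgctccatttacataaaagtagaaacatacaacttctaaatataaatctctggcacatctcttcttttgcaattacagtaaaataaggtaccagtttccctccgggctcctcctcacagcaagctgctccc
Id4 promoter, chr13:48260866-48261115, plus strand: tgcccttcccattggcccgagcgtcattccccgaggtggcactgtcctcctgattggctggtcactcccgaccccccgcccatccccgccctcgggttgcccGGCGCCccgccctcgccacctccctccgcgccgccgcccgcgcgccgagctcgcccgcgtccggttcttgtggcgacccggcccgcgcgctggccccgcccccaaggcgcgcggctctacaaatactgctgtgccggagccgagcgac
Gdf15 promoter, chr8:70632457-70632706, minus strand: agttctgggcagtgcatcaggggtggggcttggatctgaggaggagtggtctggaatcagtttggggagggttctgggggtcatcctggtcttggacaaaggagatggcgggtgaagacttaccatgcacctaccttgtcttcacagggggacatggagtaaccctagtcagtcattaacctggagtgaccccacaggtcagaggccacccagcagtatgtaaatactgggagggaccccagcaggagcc
Smad6, 50 bases before to 10 after the start, chr9:64022050-64022109, minus strand: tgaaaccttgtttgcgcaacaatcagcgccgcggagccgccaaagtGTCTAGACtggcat
The Grem1 match begins 78 bases before the start, the Id4 match 148 bases before it and the Smad6 palindrome 4 bases before it, while the Inhba and Gdf15 stretches hold neither motif. In all, 34 of the 51 members had an entry, with 40 windows running from 250 bases before to 50 after a start, and 12 of these windows in 11 genes held GGCGCC. Of all 32851 windows in the table, 11.9% held GGCGCC and 0.213% held GTCTAGAC. Such a match is a stretch of letters and not a measured binding site.

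In the comparison of 3D- with 2D-cultured ADSCs, the listed genes of this pathway were more often lower than higher. As they were listed with earlier results of these data known, their counts are no independent test of the pathway. Of the 51 members, Bmp5 was at 0 in every library and 50 were tested, of which 10 (20.0%) rose, 21 (42.0%) fell and 19 did not pass the test. Over all genes tested, 21.2% rose and 20.3% fell, 41.5% in all. Of the 7 antagonists 6 fell, the ID genes moved in opposite directions, and of the 6 receptor-regulated and common SMADs 3 did not pass the test. The 4 libraries of one culture lay wholly above those of the other for 10 members higher in 3D and 20 lower, against 21.6% and 20.9% of all genes (42.5% in either direction). The median log2 fold change was -0.61 over the 50 members and 0.00 over all genes. A mean of at least 1 FPKM in either culture was reached by 44 members, and their values are given in full. In a fit blocked by mouse, with 1 residual degree of freedom, none of the 50 and no other gene passed limma's test. The adjusted p of the 31 called members lay between 0.111 and 0.329 in that fit, and 28 members had an unadjusted p below 0.05. Within mouse 4 and within mouse 5, all 31 differed between 2D and 3D in the direction of the fit. This gives no separate support, because both mice are part of the fit. Every called member but Bambi also had cultures without overlap, which fixes the direction within any mouse.

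**Figure D1:**
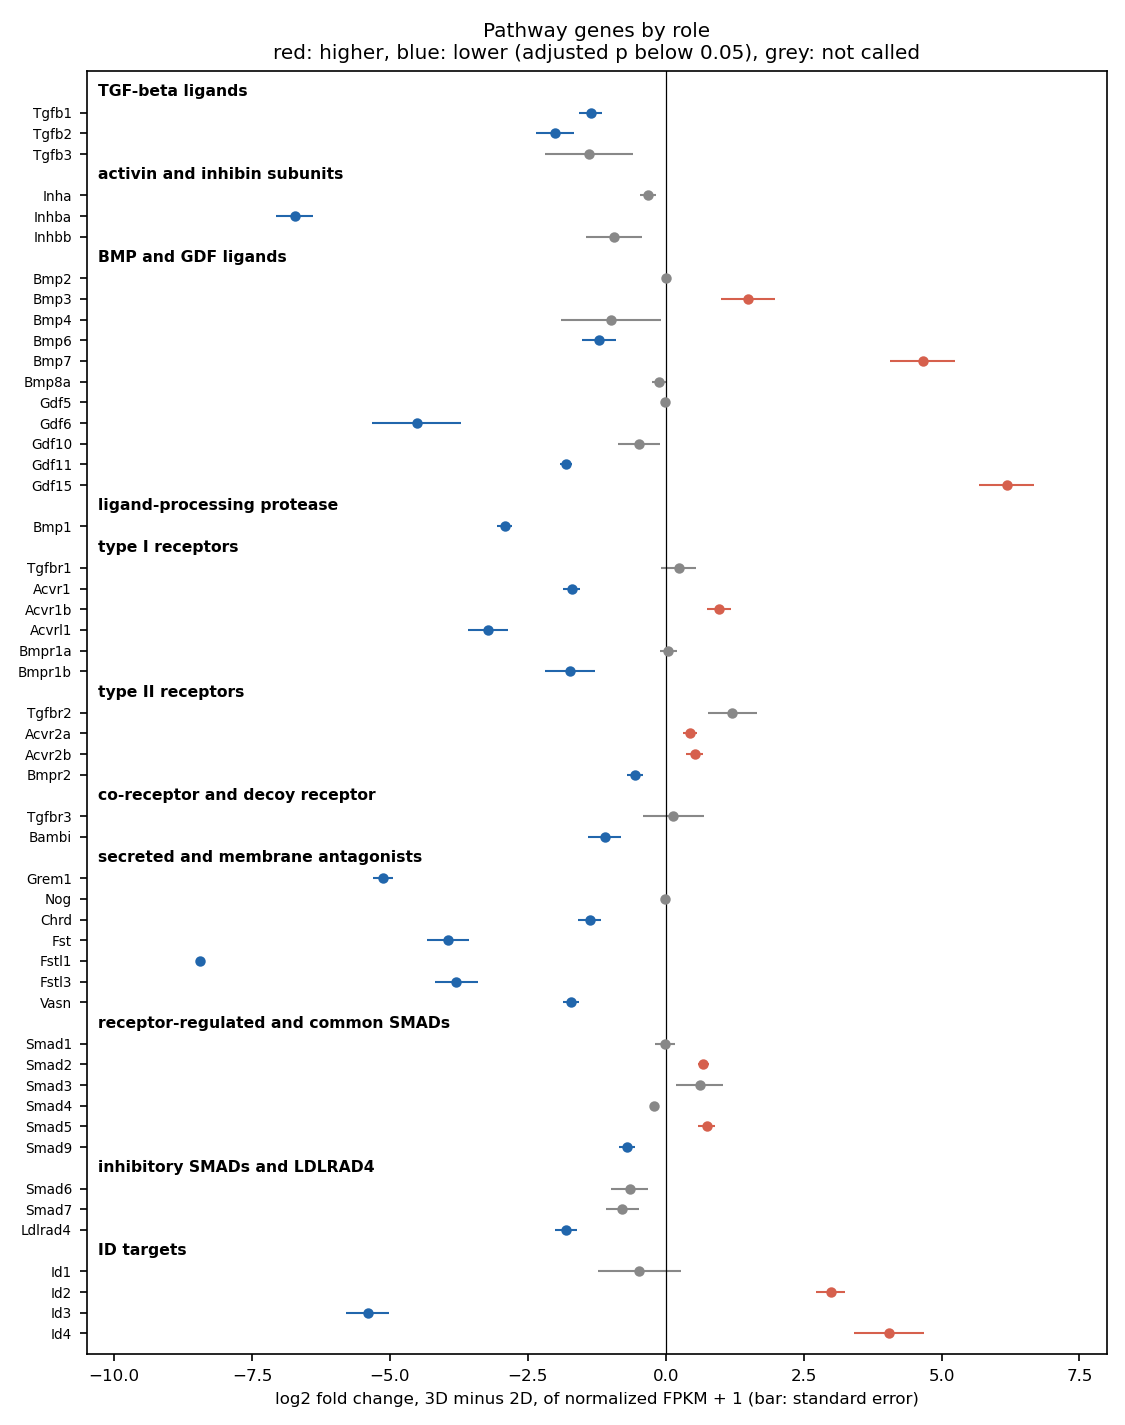
Log2 fold change of normalized FPKM + 1, 3D minus 2D, on the horizontal axis for the 50 tested members grouped by role, with bars for the standard error and colours for the call at an adjusted p of 0.05. Of the 7 antagonists, 6 lie clearly left of 0, down to -8.45 for Fstl1, while the ID genes lie on both sides.

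The forest of fold changes by role shows Fstl1, Inhba, Id3 and Grem1 at the far left and Gdf15, Bmp7 and Id4 at the far right.

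TGF-beta ligands were lower in 3D for 2 of 3 genes, where 20.3% of all genes tested fell. Tgfb1, the ligand that gives the family its name (chr7:25687002-25705077), was at 13.1, 6.70, 7.09 and 9.44 FPKM in 2D and at 3.02, 2.58, 3.23 and 2.47 FPKM in 3D. Every 2D library was above every 3D library, and Tgfb1 fell by 1.36 (SE 0.21) on the log2 scale, with limma's adjusted p = 0.0017. Tgfb2, which encodes another isoform, was at 7.99, 12.8, 4.43 and 10.4 FPKM in 2D and at 0.966, 0.800, 2.59 and 1.35 FPKM in 3D. It also fell without overlap, by 2.00 (SE 0.34), with adjusted p = 0.0026. Tgfb3, the remaining isoform and the most abundant of them per length, was at 43.3, 80.9, 46.4 and 46.4 FPKM in 2D and at 118, 15.8, 9.54 and 7.13 FPKM in 3D. The 3D library of mouse 1 was the highest of all 8 for Tgfb3 and the other 3D libraries were the lowest, so the cultures overlapped. Its log2 fold change of -1.39 (SE 0.80) did not pass the test, with limma's adjusted p = 0.20 and a range of 0.0022 to 0.48 over the alternatives. Without the 3D library of mouse 1 the fold change was -2.28 and the adjusted p was 0.0022. Tgfb3 made up between 67.3% and 80.6% of the summed level of the 3 ligands in 2D and between 62.1% and 96.7% in 3D.

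Of the activin and inhibin subunits, Inhba was the one that fell. It encodes the subunit of activin A (chr13:16011851-16031621) and was at 178, 76.1, 88.8 and 213 FPKM in 2D and at 0.0302, 0.404, 0.315 and 0.0972 FPKM in 3D. No 3D library reached 1 FPKM. The means were 139 ± 66.9 and 0.212 ± 0.177 FPKM (SD, n = 4), a ratio of 656, and the log2 fold change was -6.73 (SE 0.34) with limma's adjusted p = 6.0e-06. Inhbb, the subunit of activin B, was at 25.0, 14.2, 29.8 and 39.1 FPKM in 2D and at 5.27, 30.6, 13.8 and 11.4 FPKM in 3D. The 3D library of mouse 4 lay among the 2D libraries and the other 3D libraries lay below them, and the log2 fold change was -0.94 (SE 0.50) with adjusted p = 0.18. Without the 3D library of mouse 4 it was -1.35 with adjusted p = 0.047, within a range over the alternatives of 0.047 to 0.47. Inha, the alpha subunit that turns activins into inhibins, was at 0.886, 1.30, 1.24 and 1.04 FPKM in 2D and at 0.965, 0.464, 0.422 and 0.956 FPKM in 3D, with overlap and adjusted p = 0.11 (from 0.049 to 0.76 over the alternatives, the lowest with only mice 4 and 5). The mix of subunits differed between the cultures. Inhba gave between 74.1% and 87.3% of the summed subunit level in 2D and between 0.483% and 2.17% in 3D, where Inhbb gave between 84.1% and 97.2%.

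BMP and GDF ligands went both ways, with 3 of 11 tested genes (27.3%) higher and 3 (27.3%) lower. Over all genes tested the shares were 21.2% and 20.3%, so these counts lay near the background. Gdf15, a distant member of the family that is known to be induced by cell stress (chr8:70629393-70632456), was at 16.5, 5.28, 6.89 and 13.04 FPKM in 2D and at 349, 609, 1229 and 1275 FPKM in 3D. All 3D libraries were far above all 2D libraries. The means were 10.4 ± 5.25 and 866 ± 459 FPKM (SD, n = 4), a ratio of 83.0, and the log2 fold change was 6.18 (SE 0.50) with limma's adjusted p = 6.5e-05. Gdf15 gave between 78.3% and 98.4% of the summed level of the listed BMP and GDF ligands in 3D and between 4.70% and 43.6% in 2D. Bmp7, a BMP known from kidney epithelium and brown fat (chr2:172868012-172940321), was at 0, 0.0157, 0 and 0.0320 FPKM in 2D and at 92.8, 20.8, 10.8 and 16.7 FPKM in 3D. The 2D levels were below what 3 fragments give for this gene, between 0.0473 and 0.0564 FPKM, and mouse 1 was the highest of the 3D libraries. Bmp7 rose by 4.66 (SE 0.59) on the log2 scale with adjusted p = 5.8e-04, and by 4.04 without the 3D library of mouse 1. Bmp3, which encodes a BMP that acts mostly as an inhibitor of other BMPs, was at 0.0929, 0.0186, 0 and 0.0362 FPKM in 2D and at 0.103, 1.43, 5.20 and 3.33 FPKM in 3D. The 3D library of mouse 1 was hardly above the highest 2D library, and the rise of 1.49 (SE 0.48) with adjusted p = 0.041 was lost on leaving out any single library other than the 3D library of mouse 1 (adjusted p from 0.0033 to 0.18 over all alternatives). Each such fit kept the direction.

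The 3 lower ligands of this group were Gdf6, Gdf11 and Bmp6. Gdf6, a BMP-type ligand known from joints and tendons, was at 6.03, 34.5, 109 and 9.19 FPKM in 2D and at 0.00492, 0, 0 and 0.0171 FPKM in 3D. All 3D values were below the level of 3 fragments for this gene, and among the 2D libraries mice 3 and 4, which held the mesothelial genes, were the highest. Gdf6 fell by 4.52 (SE 0.81) with limma's adjusted p = 0.0031, and its log2 fold change was -3.76 when the 2D library of mouse 4 was left out and -3.09 without those of mice 3 and 4. Gdf11, a close relative of myostatin, was at 13.2, 12.7, 13.1 and 14.6 FPKM in 2D and at 3.49, 3.26, 2.66 and 3.02 FPKM in 3D. It showed the smallest spread among the lower ligands and fell by 1.81 (SE 0.11), with adjusted p = 1.8e-05. Bmp6, a BMP known for its role in iron balance, was at 1.35, 0.934, 4.37 and 1.55 FPKM in 2D and at 0.0972, 0.267, 0.402 and 0.116 FPKM in 3D, and it fell by 1.21 (SE 0.30) with adjusted p = 0.014.

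Bmp4, the BMP most often tied to adipocyte commitment, was at 0, 9.41, 10.6 and 0 FPKM in 2D and at 0.144, 0.908, 1.01 and 0.747 FPKM in 3D. The 2D libraries split into mice 3 and 4 above all 3D libraries and mice 2 and 5 at 0. The log2 fold change of Bmp4 was -0.996 (SE 0.90) with limma's adjusted p = 0.42, and it was 0.74 with adjusted p = 0.068 without the 2D libraries of mice 3 and 4 (adjusted p from 0.068 to 0.82 over the alternatives). The part of the mesothelial genes in this split was not tested. The remaining ligands were low. Bmp2 was at most 0.0141 FPKM, Gdf5 at most 0.0446 FPKM and Bmp8a, which shares near-identical sequence with Bmp8b and is uncertain for that reason, between 0.0589 and 0.623 FPKM, while Gdf10 reached 2.37 FPKM in the 2D library of mouse 4 but was at 0 in all 3D libraries and did not pass the test (adjusted p = 0.34). Bmp1, which despite its name encodes the protease that trims procollagens and cleaves chordin, was at 118, 144, 107 and 121 FPKM in 2D and at 18.9, 14.3, 12.6 and 15.9 FPKM in 3D. All 2D libraries were above all 3D libraries, and Bmp1 fell by 2.92 (SE 0.14) with adjusted p = 4.1e-06.

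Antagonists were lower in 3D in 6 of 7 cases (85.7%) and higher in none, with a median log2 fold change of -3.796. Over all genes tested 20.3% fell and 21.2% rose. The summed level of the antagonists was between 454 and 506 FPKM in 2D and between 11.0 and 17.2 FPKM in 3D. Fstl1, a secreted follistatin-like glycoprotein typical of mesenchymal cells (chr16:37776873-37836514), was at 355, 371, 355 and 377 FPKM in 2D and at 0.137, 0.0138, 0.0209 and 0.0168 FPKM in 3D. Its 2D levels varied little, with a mean of 364 ± 11.2 FPKM (SD, n = 4), and only the 3D library of mouse 1 held more than the level of 3 fragments, which was at most 0.0546 FPKM. Fstl1 fell by 8.45 (SE 0.07) with limma's adjusted p = 1.5e-09. Grem1, or gremlin, a BMP antagonist (chr2:113746164-113758646), was at 46.4, 35.6, 28.0 and 28.0 FPKM in 2D and at 0 in every 3D library. On the values as deposited, before normalization, its 2D mean was at least 766-fold above the level of 3 fragments in the 3D libraries. On the normalized values limma's adjusted p was 1.0e-06. Fst, or follistatin, which binds activin, was at 29.5, 41.0, 22.8 and 21.4 FPKM in 2D and at 0.773, 0.623, 2.75 and 0.108 FPKM in 3D. It fell by 3.95 (SE 0.38) with adjusted p = 1.6e-04, and every 3D library was below every 2D library, as for the activin subunit Inhba.

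Fstl3, another activin-binding relative of follistatin, was at 24.2, 11.2, 8.37 and 30.03 FPKM in 2D and at 0.120, 0.247, 0.375 and 0.255 FPKM in 3D, and it fell by 3.796 (SE 0.39) with limma's adjusted p = 2.0e-04. Chrd, or chordin, which holds BMPs away from their receptors, was at 0.908, 1.78, 3.03 and 1.40 FPKM in 2D and at 0.0684, 0.0543, 0 and 0 FPKM in 3D, and it fell by 1.38 (SE 0.21) with adjusted p = 0.0014. Both were without overlap between the cultures. Vasn, or vasorin, a membrane protein that binds TGF-beta, was at 45.3, 36.2, 36.6 and 48.2 FPKM in 2D and at 9.82, 10.7, 14.1 and 13.4 FPKM in 3D. It fell by 1.72 (SE 0.15) with adjusted p = 8.5e-05 and had the highest level of the antagonists in 3D, where it gave between 81.7% and 97.2% of the summed level. Fstl1 gave between 70.8% and 78.2% of that sum in 2D. Nog, or noggin, was at most 0.139 FPKM in any library.

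**Figure D2:**
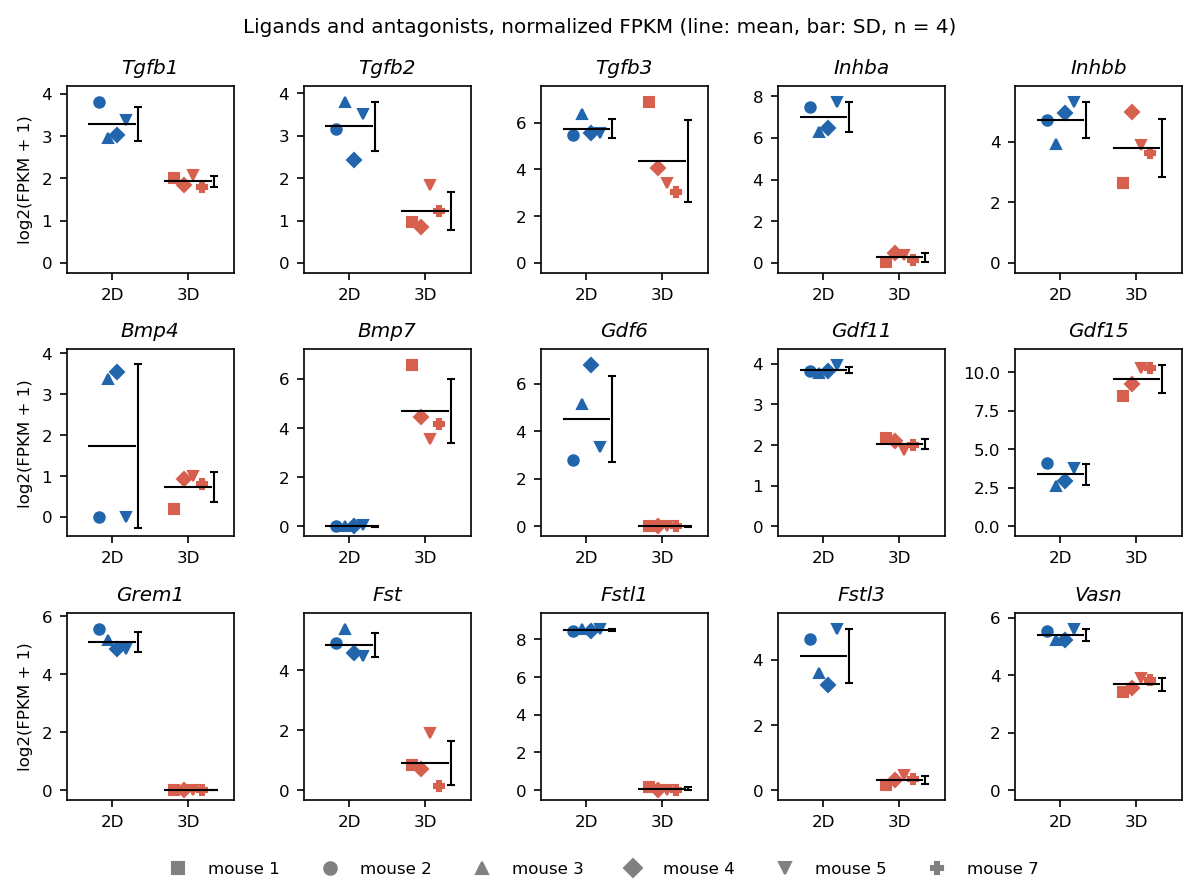
Log2 of normalized FPKM + 1 on the vertical axis for 10 ligands and 5 antagonists in the 4 2D and 4 3D libraries, 1 symbol per mouse, with the mean as a line and the SD as a bar. Inhba, Gdf6, Grem1 and Fstl1 lie near 0 in 3D, Bmp7 lies near 0 in 2D, and Bmp4 splits the 2D libraries.

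In the plot of ligands and antagonists by library, the square of mouse 1 stands above the other 3D libraries for Tgfb3 and Bmp7 and below them for Inhbb and Gdf15.

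Type I receptors changed in part, with 3 of 6 (50%) lower and 1 (16.7%) higher, against 20.3% and 21.2% of all genes tested. Acvrl1, the receptor known from vascular endothelium, was at 16.2, 4.43, 8.47 and 15.2 FPKM in 2D and at 0.0758, 0.304, 0.182 and 0.113 FPKM in 3D. It fell by 3.23 (SE 0.36) with limma's adjusted p = 3.4e-04. The 5 endothelial markers summed to at most 6.79 FPKM in any library, of which Kdr gave 6.34 FPKM. The part of endothelial cells in the level of Acvrl1 was not tested. Acvr1, a BMP-type receptor, was at 16.1, 12.2, 10.3 and 12.5 FPKM in 2D and at 3.48, 2.98, 3.45 and 2.83 FPKM in 3D, with a fall of 1.71 (SE 0.15) and adjusted p = 1.0e-04. For both genes the cultures did not overlap. Bmpr1b, a BMP receptor, was at 6.67, 3.53, 3.50 and 6.14 FPKM in 2D and at 3.36, 0.131, 0.568 and 0.193 FPKM in 3D. The 3D library of mouse 1 lay just below the lowest 2D library, and the fall of 1.73 (SE 0.45) had adjusted p = 0.017. It was above 0.05 on leaving out the 2D library of mouse 2 (0.052), the 2D library of mouse 5 (0.051) or the 3D library of mouse 7 (0.052), within a range of 0.0012 to 0.12 over the alternatives.

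Acvr1b, the main activin type I receptor, was at 5.44, 6.52, 7.23 and 4.33 FPKM in 2D and at 18.3, 10.3, 10.1 and 11.8 FPKM in 3D. It was the type I receptor that rose, by 0.97 (SE 0.22) with limma's adjusted p = 0.0096. Tgfbr1, the TGF-beta type I receptor, was at 10.03, 22.2, 23.3 and 10.4 FPKM in 2D and at 13.5, 21.2, 22.8 and 16.6 FPKM in 3D. In 2D it was higher in mice 3 and 4 than in mice 2 and 5, and its log2 fold change of 0.23 (SE 0.32) had adjusted p = 0.58. Without the 2D libraries of mice 3 and 4 it was 0.76 with adjusted p = 0.043 (from 0.043 to 0.93 over the alternatives). Bmpr1a, the most abundant type I receptor per length, was at 33.9, 42.1, 48.5 and 36.1 FPKM in 2D and at 54.0, 38.4, 36.1 and 38.4 FPKM in 3D. The cultures overlapped, with a log2 fold change of 0.05 (SE 0.16), adjusted p = 0.82 and a sign that turned under some alternatives.

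Of the 4 type II receptors 2 (50%) rose and 1 (25%) fell, against 21.2% and 20.3% of all genes tested. Tgfbr2, the receptor that binds TGF-beta first, was at 20.3, 48.2, 38.1 and 27.4 FPKM in 2D and at 31.1, 89.5, 109 and 103 FPKM in 3D. In 3D, 3 of the 4 libraries were above all 2D libraries and that of mouse 1 lay among them. The log2 fold change of 1.21 (SE 0.44) had limma's adjusted p = 0.060, and it was 1.64 with adjusted p = 0.0054 without the 3D library of mouse 1 (from 0.0054 to 0.15 over the alternatives). Acvr2a, an activin type II receptor, was at 11.4, 8.47, 10.2 and 10.7 FPKM in 2D and at 16.6, 13.6, 13.6 and 12.8 FPKM in 3D, a rise of 0.44 (SE 0.12) with adjusted p = 0.022. Acvr2b, its relative, was at 0.310, 0.632, 0.315 and 0.672 FPKM in 2D and at 1.76, 0.998, 0.873 and 0.967 FPKM in 3D, a rise of 0.53 (SE 0.15) with adjusted p = 0.026. The rise of Acvr2b was lost without the 2D library of mouse 2 (adjusted p = 0.072) or that of mouse 4 (0.066), within a range of 0.011 to 0.33 over the alternatives. Bmpr2, the BMP type II receptor, was at 28.2, 32.0, 25.6 and 26.6 FPKM in 2D and at 24.2, 19.1, 17.3 and 15.1 FPKM in 3D, a fall of 0.56 (SE 0.15) with adjusted p = 0.017.

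Tgfbr3, the co-receptor betaglycan, was at 1.76, 8.59, 10.6 and 2.85 FPKM in 2D and at 11.9, 3.15, 4.12 and 5.28 FPKM in 3D. Mice 3 and 4 were the highest in 2D and mouse 1 the highest in 3D, and the log2 fold change was 0.13 (SE 0.55) with limma's adjusted p = 0.86. Bambi, a decoy receptor without kinase activity, was at 2.01, 0.772, 1.53 and 3.43 FPKM in 2D and at 0.904, 0.145, 0.128 and 0.119 FPKM in 3D. The 3D library of mouse 1 was above the lowest 2D library. Bambi fell by 1.11 (SE 0.30) with adjusted p = 0.020, which was above 0.05 without the 2D library of mouse 2 (0.054) or the 3D library of mouse 4 (0.057), mouse 5 (0.059) or mouse 7 (0.059), within a range of 0.0098 to 0.16 over the alternatives.

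Receptor-regulated and common SMADs summed to between 77.4 and 96.1 FPKM in 2D and to between 97.0 and 135 FPKM in 3D. The sums did not overlap, but the highest in 2D (mouse 3) and the lowest in 3D (mouse 7) were nearly equal. Of these 6 genes 2 (33.3%) rose and 1 (16.7%) fell, against 21.2% and 20.3% of all genes tested. Smad2, which transmits TGF-beta and activin signals, was at 10.9, 11.7, 11.1 and 10.4 FPKM in 2D and at 18.1, 15.6, 21.6 and 18.3 FPKM in 3D, a rise of 0.68 (SE 0.11) with limma's adjusted p = 0.0016. Smad5, which transmits BMP signals, was at 12.8, 14.8, 13.4 and 15.2 FPKM in 2D and at 32.9, 23.4, 22.9 and 19.4 FPKM in 3D, a rise of 0.74 (SE 0.16) with adjusted p = 0.0066. Neither gene overlapped between the cultures. Smad9, the least abundant BMP SMAD, was at 0.538, 0.794, 1.08 and 0.257 FPKM in 2D and at 0.00336, 0.0324, 0 and 0 FPKM in 3D, and it fell by 0.70 (SE 0.14) with adjusted p = 0.0055. The rest did not pass the test. Smad1 was at 21.0, 14.8, 17.0 and 20.2 FPKM in 2D and at 16.8, 23.4, 19.6 and 13.4 FPKM in 3D, and its log2 fold change was -0.01 (SE 0.18). Smad3 was at 12.9, 33.7, 27.8 and 12.8 FPKM in 2D and at 17.2, 34.7, 52.1 and 29.7 FPKM in 3D, and its log2 fold change was 0.61 (SE 0.42), mice 3 and 4 again being the highest in 2D. Smad4, the common partner, was at 19.2, 20.3, 18.5 and 22.0 FPKM in 2D and at 17.3, 16.2, 19.0 and 16.3 FPKM in 3D, and its log2 fold change was -0.20 (SE 0.09) with adjusted p = 0.095, which was 0.033 on the values as deposited (from 0.033 to 0.47 over the alternatives).

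Among the inhibitors inside the cell, Ldlrad4, a membrane protein that keeps SMAD2 and SMAD3 from the receptor, was at 19.4, 19.7, 14.6 and 23.9 FPKM in 2D and at 4.27, 5.94, 5.68 and 3.36 FPKM in 3D. It fell by 1.82 (SE 0.20) without overlap, with limma's adjusted p = 3.0e-04. Smad7, which blocks TGF-beta receptors, was at 21.7, 14.4, 15.0 and 16.3 FPKM in 2D and at 4.96, 15.7, 10.2 and 8.80 FPKM in 3D. Only the 3D library of mouse 4 lay within the range of 2D, and the log2 fold change of -0.79 (SE 0.30) with adjusted p = 0.071 was -1.03 with adjusted p = 0.021 without that library (from 0.021 to 0.55 over the alternatives). Smad6, which prefers BMP receptors and whose promoter carries the palindrome shown above, was at 4.36, 9.53, 11.8 and 3.88 FPKM in 2D and at 3.15, 3.57, 4.91 and 4.14 FPKM in 3D. Mice 3 and 4 stood above all other libraries, mice 2 and 5 lay within the range of 3D, and the adjusted p was 0.16.

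**Figure D3:**
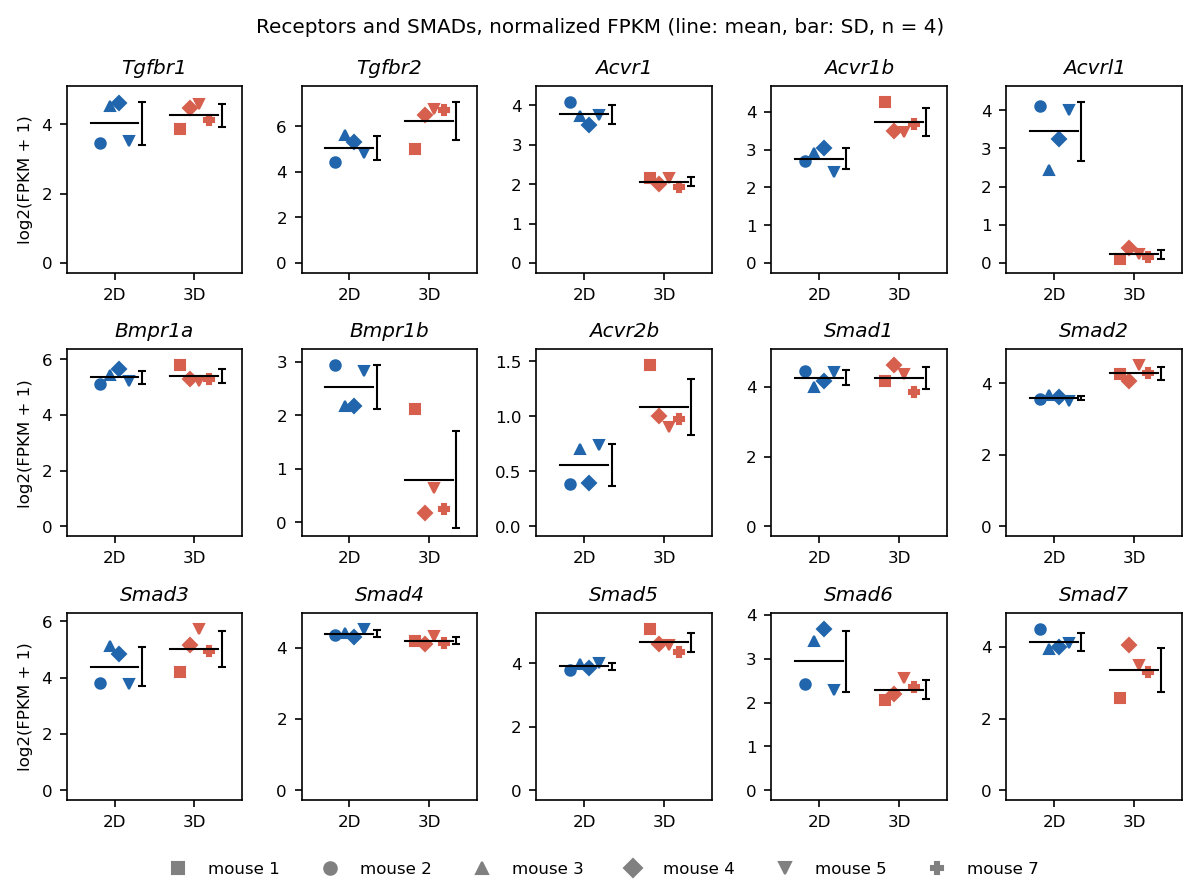
Log2 of normalized FPKM + 1 on the vertical axis for 8 receptors and 7 SMAD genes in the 2D and 3D libraries, 1 symbol per mouse, with the mean as a line and the SD as a bar. Acvrl1 and Acvr1 separate the cultures widely, Smad2 and Smad5 by less, and Bmpr1a, Smad1 and Smad4 lie at similar heights in both.

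The plot of receptors and SMADs by library shows Bmpr1a, Tgfbr1 and Smad3 overlapping between the cultures.

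The 4 ID genes, which encode inhibitors of DNA binding that pair with basic helix-loop-helix factors, did not move together. Id3 (chr4:136143497-136145755) was at 52.5, 113, 115 and 57.6 FPKM in 2D and at 0.0580, 2.09, 0.846 and 1.14 FPKM in 3D. All 3D libraries were far below all 2D libraries, with means of 84.6 ± 34.1 and 1.03 ± 0.838 FPKM (SD, n = 4), and Id3 fell by 5.41 (SE 0.40) with limma's adjusted p = 3.9e-05. Id2 (chr12:25093799-25097140) was at 5.02, 12.4, 10.3 and 7.26 FPKM in 2D and at 72.6, 94.4, 59.4 and 70.3 FPKM in 3D. It was higher in every 3D library, with means of 8.76 ± 3.27 and 74.1 ± 14.7 FPKM, a ratio of 8.47 and a rise of 2.99 (SE 0.26) with adjusted p = 9.2e-05. Id4 (chr13:48261228-48266026), whose promoter is shown above, was at 0.438, 1.79, 0.801 and 0.514 FPKM in 2D and at 120.0, 23.6, 15.1 and 16.0 FPKM in 3D. The 3D library of mouse 1 was far above the others, and Id4 rose by 4.05 (SE 0.64) with adjusted p = 0.0018, or by 3.42 without that library. Id1, the closest relative of Id3, was at 29.5, 87.4, 95.5 and 21.2 FPKM in 2D and at 8.02, 67.8, 45.8 and 52.2 FPKM in 3D. In 2D mice 3 and 4 were high and in 3D mouse 1 was low, and the log2 fold change of -0.48 (SE 0.76) had adjusted p = 0.64. The fold change was 0.18 on leaving out the 3D library of mouse 1 and 0.43 without the 2D libraries of mice 3 and 4, with adjusted p from 0.42 to 0.91 over the alternatives.

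The summed level of the 4 ID genes was 87.5, 214, 222 and 86.6 FPKM in 2D and 201, 188, 121 and 140 FPKM in 3D, so the sums overlapped while the members changed places. Id3 gave between 51.9% and 66.5% of the sum in 2D and between 0.0289% and 1.11% in 3D. Id2 went from between 4.66% and 8.38% to between 36.2% and 50.4%, and Id4 from between 0.361% and 0.836% to between 11.4% and 59.8%. In both cultures Id1 took a large and variable share, between 24.5% and 43.0% in 2D and between 3.99% and 37.8% in 3D.

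**Figure D4:**
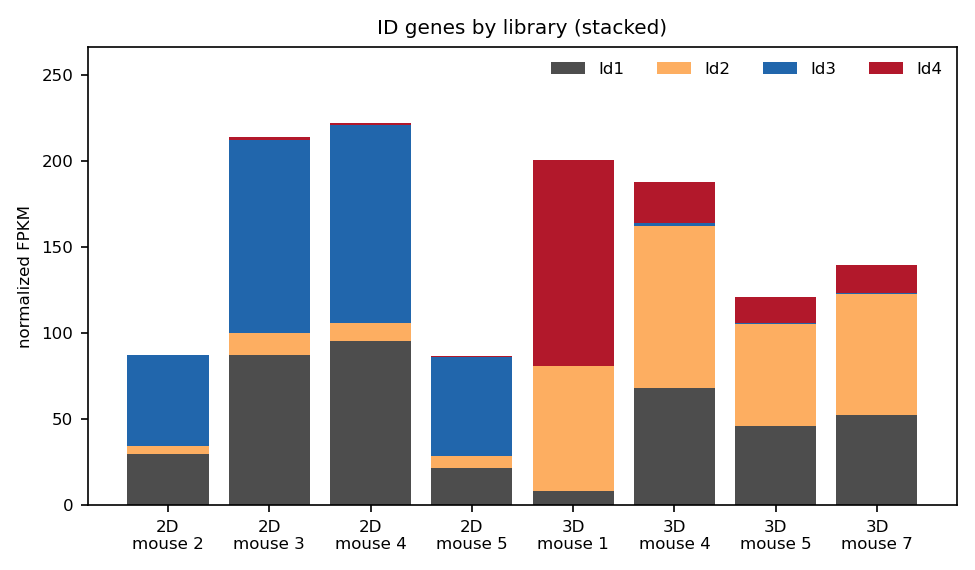
Stacked bars of normalized FPKM of Id1, Id2, Id3 and Id4 in each library, 2D libraries first. Id3 fills between 51.9% and 66.5% of each 2D bar and at most 1.11% of a 3D bar, where Id2 and Id4 take its place, and Id4 is the largest part only in mouse 1.

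The stacked bars of the ID genes show overlapping totals built from different genes.

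Members differed in both directions among the 2D libraries that did and did not hold the mesothelial genes. In 2D the 6 mesothelial markers summed to 846 and 2028 FPKM for mice 3 and 4, against 1.99 and 0.569 FPKM for mice 2 and 5. Of the 44 members with a mean of at least 1 FPKM in either culture, 17 were higher in both libraries of mice 3 and 4 than in both of mice 2 and 5, and 14 were lower in both. The share of all genes that split in this way was not computed. These counts can therefore not be read as particular to this pathway. Those higher included Bmp4, Gdf6, Id1, Id3, Smad3, Smad6, Tgfbr1, Tgfbr2 and Tgfbr3, and those lower included Inhba, Gdf15, Tgfb1, Acvrl1 and Fstl3, all named as examples after their values were seen. Without the 2D libraries of mice 3 and 4, 8 members rose and 20 fell, and 27 of the 31 called members were still called. Of all 18862 genes tested, 3503 rose and 4226 fell in that fit. The 4 called members that were lost were Bmp3 (adjusted p = 0.18), Acvr2a (0.084), Acvr2b (0.096) and Bmpr2 (0.079). Their range of adjusted p over all alternatives was 0.0033 to 0.18, 0.016 to 0.27, 0.011 to 0.33 and 0.0038 to 0.18 in the same order. In 3D the mesothelial sum was 33.97 FPKM in mouse 4 and at most 6.24 FPKM in the others. Msln alone was at 33.6 FPKM in mouse 4, 5.62 FPKM in mouse 5 and 5.98 FPKM in mouse 7, nearly all of these sums. Whether mesothelial cells contributed transcripts of the members was not tested.

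**Figure D5:**
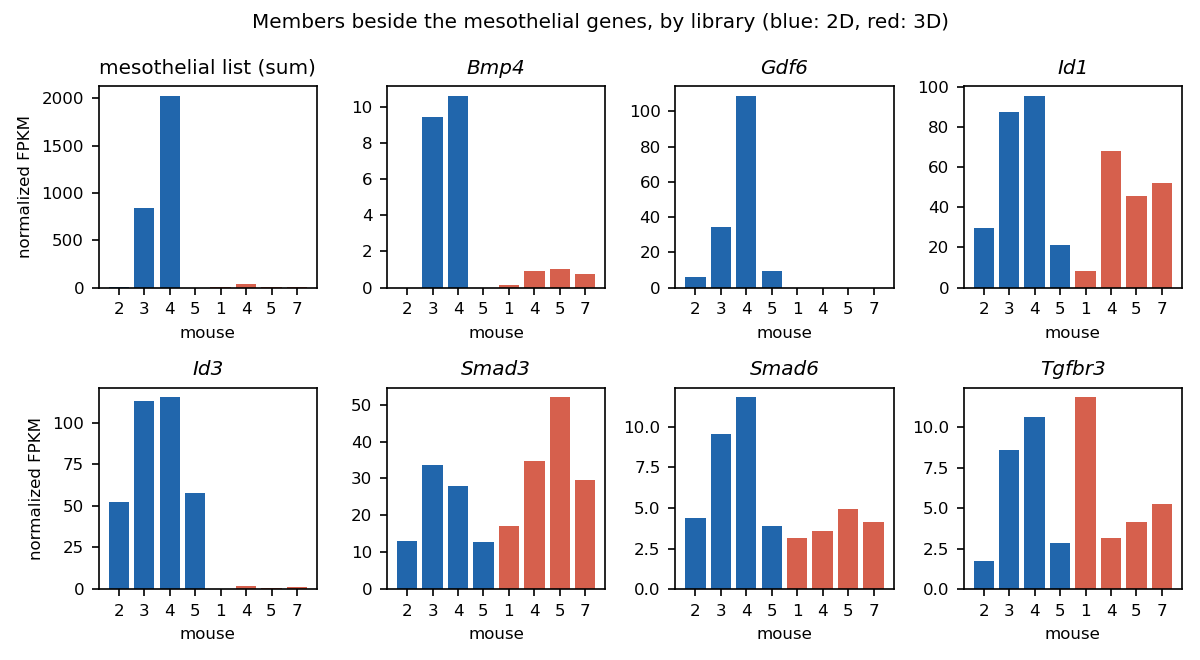
Normalized FPKM per library, 2D in blue and 3D in red, for the sum of 6 mesothelial markers and for 7 of the members that were higher in 2D mice 3 and 4, with each axis starting at 0. The bars of 2D mice 3 and 4 stand above those of 2D mice 2 and 5 in every panel, and for Bmp4 and Id1 the 2D bars of mice 2 and 5 are below most of the 3D bars.

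The bars beside the mesothelial sum show the overlap of the cultures for Bmp4, Id1 and Smad6, while Id3 stayed at or below 2.09 FPKM in 3D and at or above 52.5 FPKM in 2D, whichever mice are compared.

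A further 83 genes of the same pathways, listed by role and also with earlier results known, were looked at beside the members. Of these, 8 were at 0 in every library and 75 were tested. Of the tested genes 8 (10.7%) rose and 30 (40.0%) fell, against 21.2% and 20.3% of all genes tested. Their median log2 fold change was -0.16. Among 11 tested further ligands none rose and 3 (27.3%) fell, and all were low. Lefty1, an inhibitor of nodal, was between 0.977 and 5.94 FPKM in 2D and at most 0.0791 FPKM in 3D and fell by 1.85 (SE 0.46, adjusted p = 0.014). Its 2D levels were 5.79 and 5.94 FPKM in mice 3 and 4 and 0.977 and 1.05 FPKM in mice 2 and 5, and without the 2D libraries of mice 3 and 4 its log2 fold change was -0.98 with adjusted p = 9.2e-05 (from 9.2e-05 to 0.24 over the alternatives). The oocyte factor Gdf9 and the BMP ligand Gdf7 had log2 fold changes of -0.75 and -0.62 from levels of at most 1.28 FPKM. Of 6 other receptors and co-receptors, 2 (33.3%) fell. Eng, or endoglin, a co-receptor that is also a surface marker of mesenchymal stem cells, was between 1.90 and 49.1 FPKM in 2D and between 0.0218 and 0.189 FPKM in 3D. Its log2 fold change was -3.75 (SE 0.80, adjusted p = 0.0072), which was -4.54 when the 2D library of mouse 3 was left out. Neo1, or neogenin, fell by 1.16 from 38.4 ± 7.48 to 16.7 ± 4.64 FPKM (SD, n = 4).

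Genes that store, process or activate TGF-beta fell in 7 of 15 cases (46.7%) and rose in 2 (13.3%), against 20.3% and 21.2% of all genes tested. Lrrc32, which anchors latent TGF-beta to the cell surface, had a mean of 92.5 ± 30.8 FPKM in 2D and 0.345 ± 0.150 FPKM in 3D and fell by 6.05 (SE 0.27) with limma's adjusted p = 2.9e-06. Ltbp2, a latent TGF-beta binding protein of the matrix, and Tll1, a protease of the Bmp1 family, had log2 fold changes of -5.64 and -4.11. The 2 that rose, named after their values were seen, were the integrin subunits Itgb6 and Itgb8, both known to activate latent TGF-beta. Itgb6, which is typical of epithelial cells, was at most 0.0679 FPKM in 2D and between 7.78 and 12.2 FPKM in 3D, a rise of 3.44 (SE 0.16, adjusted p = 4.3e-06). Itgb8 overlapped between the cultures and rose by 1.39 (SE 0.43, adjusted p = 0.034). That call was lost, with adjusted p from 0.063 to 0.091, on leaving out the 2D library of mouse 2, 4 or 5 or the 3D library of mouse 1, 5 or 7, and over all alternatives the p ranged from 0.0063 to 0.24.

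Of 13 tested further antagonists and binding proteins, 3 (23.1%) fell and 2 (15.4%) rose. Over all genes tested 20.3% fell and 21.2% rose, so these counts lay near the background. Bmper, which modulates BMPs in the matrix, was between 21.7 and 152 FPKM in 2D and at most 0.0195 FPKM in 3D and fell by 5.62 (SE 0.58), with limma's adjusted p = 2.1e-04. Nbl1, a BMP antagonist of the DAN family, had a log2 fold change of -3.02, or -3.75 when the 3D library of mouse 1 was left out. Twsg1 and Wfikkn1, named after their values were seen, rose by 0.68 and 0.84. The rise of Twsg1, with adjusted p = 0.047, was lost on the values as deposited (0.23), without the intensity trend (0.055) and on leaving out the 2D library of mouse 2, 3 or 5 or the 3D library of mouse 1, 5 or 7 (0.054 to 0.11), and the p ranged from 0.024 to 0.53 over all alternatives. Among 13 SMAD regulators 5 (38.5%) fell and 2 (15.4%) rose, against the same 20.3% and 21.2% of all genes. Pmepa1, a TGF-beta target that restrains the pathway in the manner of its relative Ldlrad4, fell by 2.49 (SE 0.28) from 67.9 ± 15.8 to 11.6 ± 4.15 FPKM (SD, n = 4), and the ubiquitin ligase Smurf2 fell by 1.103 while the ligase Nedd4l rose by 1.097.

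Genes known to be induced by TGF-beta were lower in 8 of 10 cases (80%), against 20.3% of all genes tested. Their median log2 fold change was -2.23. Fn1, or fibronectin, fell by 7.55 (SE 0.54) with limma's adjusted p = 3.5e-05, and Itga5, a subunit of its receptor, fell by 7.21 (SE 0.40). Junb, named after its values were seen, was the member of this list that rose, by 0.92 (SE 0.20, adjusted p = 0.0086), and its log2 fold change was 0.39 with adjusted p = 0.14 on the values as deposited (from 0.0056 to 0.14 over the alternatives). Fibronectin and its receptor are also stromal genes, and 11 of the 12 stromal markers also fell. The part of stromal cells in the fall of this list was not tested. Of 7 tested genes known to be induced by BMP, 2 (28.6%) fell and 1 (14.3%) rose. Over all genes tested 20.3% fell and 21.2% rose, so these counts lay near the background. Atoh8 was between 2.87 and 8.95 FPKM in 2D and at 0 in every 3D library (adjusted p = 2.6e-04), Msx1 fell by 0.60 from levels of at most 0.724 FPKM, and Hey1 rose by 1.95 (SE 0.33, adjusted p = 0.0024) from at most 0.283 FPKM to between 2.26 and 8.04 FPKM.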

How the data were processed

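Total RNA of 8 primary ADSC cultures was sequenced as strand-specific, ribosome-depleted paired-end libraries. Per the labels and the methods of the study, the authors trimmed the reads, mapped them with TopHat to mm10 and estimated gene levels with Cufflinks. The version of the gene annotation is not given in the sources used here. The deposited values are FPKM per gene and library without read counts, and were checked not to be quantile normalized.

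Genes at 0 in every library (5484 of 24346) were left out. The FPKM values of the other 18862 genes were quantile normalized with limma 3.58.1 in R 4.3.3, as the methods of the study describe for their next step, and tested as log2(FPKM + 1) by limma's empirical Bayes test, using a trend of variance on intensity and no covariate, adjusted by Benjamini-Hochberg over all 18862 genes. The model was tested on simulated data. P-values measure the spread between cultures of different mice, with 1 culture per mouse and condition.

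The labels pair mice 4 and 5 across the cultures. The deviations of their 2D and 3D libraries from the culture means correlated at -0.05 and -0.11 over 12577 genes, and blocking by mouse was an alternative fit. Further alternatives used the deposited values unchanged, dropped the intensity trend, set a minimum mean of 1 FPKM or a pseudocount of 0.1, took only mice 4 and 5, or left out a single library at a time. Leaving out the 2D libraries of mice 3 and 4 together was chosen after seeing the data. The description of the 3D library of mouse 1 does not repeat the culture, which was taken from its title and group label.

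The depth of a library was derived from the spacing of its low FPKM values in genes with 1 transcript (GENCODE M21, which held the symbols of 95.6% of all listed genes). Intervals and floors of 3 fragments cover counting error only. Coordinates are of GRCm38 (mm10), from GENCODE M21 for genes and RefSeq for promoters. No protein sequences were used here.

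All 51 members are named, those with a mean of at least 1 FPKM in either culture with each library's value. For each list of other pathway genes, up to 3 called genes without overlap and with the largest absolute log2 fold change are named. Not every gene chosen this way is reported here. Marker lists covered stromal, epithelial, mesothelial, endothelial, macrophage, adipocyte and epididymal cells. The members and lists were chosen with earlier results of these data known.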

Additional observations from a re-analysis of the deposited data

Results flagged for a closer look

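For the 44 members with a mean of at least 1 FPKM in either culture, both cultures were checked for a library far from the other 3 by Dixon's test at its 95% critical value. Chance alone marks about 1 in 20 groups, and 6 of the 88 groups checked were marked, of which 5 concern the 3D library of mouse 1. It was high for Bmpr1a, Acvr2b, Bambi and Fstl1 and low for Tgfbr2. Bmpr1a was at 54.0 FPKM there against 36.1 to 38.4 FPKM in the other 3D libraries, and Acvr2b was at 1.76 FPKM against 0.873 to 0.998 FPKM. Bambi was at 0.904 FPKM against 0.119 to 0.145 FPKM, and Fstl1 was at 0.137 FPKM against 0.0138 to 0.0209 FPKM. Tgfbr2 was at 31.1 FPKM against 89.5 to 109 FPKM. The remaining group was Tgfb3 in 2D, where mouse 3 was at 80.9 FPKM against 43.3 to 46.4 FPKM.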

How the results depend on the processing

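Counts of called members were within 1.5 times the reported 10 higher and 21 lower on the values as deposited, without the intensity trend, with a minimum mean of 1 FPKM (41 members tested), with a pseudocount of 0.1 and without the 2D libraries of mice 3 and 4. On leaving out each library in turn they ranged from 8 to 11 higher and from 19 to 22 lower, and for the other pathway genes from 6 to 8 higher and from 27 to 30 lower. In these fits 27 of the 31 called members stayed called, the others being Acvr2b, Bambi, Bmp3 and Bmpr1b. With the mouse as a replicate block 0 members rose, 0 fell, and 0 of the other pathway genes rose or fell in limma's test (at an unadjusted p below 0.05, 7 and 21 members and 7 and 23 other genes). That fit has 1 residual degree of freedom, and it ended every call, with 0 of all 18862 genes tested passing in either direction. With only mice 4 and 5, 5 members rose and 10 fell, and 3 other pathway genes rose and 15 fell. Of all 18862 genes tested, 1486 rose and 1127 fell with only these mice. Under the block only these mice hold both cultures, so both fits estimate the difference from the same libraries and are not separate support. Both fits turned the sign of 4 members that were not called, with log2 fold changes of -0.17 and -0.17 for Bmpr1a, -0.54 and -0.54 for Tgfbr3, 0.20 and 0.20 for Smad1 and 0.29 and 0.29 for Id1 under the block and with only mice 4 and 5. Bmpr1a was also -0.26 as deposited. Without the 2D libraries of mice 3 and 4, Bmp4 was 0.74, Id1 0.43 and Nog 0.011. Leaving out each library in turn gave ranges across 0 of -0.078 to 0.14 for Bmpr1a, -0.22 to 0.46 for Tgfbr3, -0.13 to 0.13 for Smad1, -0.84 to 0.18 for Id1, -0.041 to 0.023 for Nog and -0.0017 to 0.0054 for Bmp2. The cause of these changes was not tested. Without read counts, levels under 3 fragments, such as those of Bmp2, Gdf5 and Nog in most libraries, were too low to show a difference at this depth.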

Other observations

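Markers of other cell types that play no part in the results above were also summed. Of 5 macrophage markers 2 rose in 3D, Cd14 and Cd68, and the summed level was between 4.85 and 11.3 FPKM in 2D and between 124 and 170 FPKM in 3D. Most of the 3D sum was Cd14 alone, at between 81.7 and 164 FPKM. Csf1r did not pass the test, Adgre1 was at 0 in all 4 3D libraries, and the pan-leukocyte gene Ptprc was at most 0.0779 FPKM in any library. Of 3 tested adipocyte markers 1 fell, Lpl, with sums between 6.80 and 39.3 FPKM in 2D and at most 0.0995 FPKM in 3D. Adipoq and Lep were at 0 in every library. None of 4 tested epididymal markers passed limma's test, and their sum was at most 4.21 FPKM. None of the 5 endothelial and none of the 6 mesothelial markers passed the test either.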
